A study of Mus musculus with 24 samples.

Results

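Hepatocytes take instructions from circulating hormones through G protein-coupled receptors, and 10 transcripts of that system were followed here in mouse liver 3 or 6 h after food came back as a methionine-restricted (MR) or a Control (Con) diet. They are the receptors Adora1, Adra1b, Gcgr, Avpr1a, Sucnr1 and S1pr5 (6 genes), the receptor accessory protein Ramp2 (1 gene) and the G protein subunits Gng10, Gnai2 and Gnas (3 genes). They were picked by name from the 9049 genes of the deposited table, all 10 names are listed there, and the choice was made with the values of MR against Con at 3 h in view. The diet comparisons of these genes are therefore given as descriptions with no test, and tests are given for 6 h against 3 h within each diet. The 3 h livers in view at the choice are also 1 side of each time comparison. The p-values of the time tests are therefore not free of that choice.

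Liver RNA came from male C57BL6/J mice of 2 months of age, 6 in each group: MR for 6 h, Con for 6 h, MR for 3 h and Con for 3 h. The MR diet held 0.17% methionine and the Con diet 0.86%, both as mixtures of elemental amino acids. No mouse carried an engineered allele. All had first been adapted to Con on a reversed light cycle and received the test diet when food came back at lights off. The 3 h and 6 h groups therefore differ in hours of feeding and in clock time at once. On MR they also differ in hours on the restricted diet. These differences cannot be told apart. The labels speak of 8 mice in a group, and each library is from 1 mouse.

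A G protein-coupled receptor that binds its ligand activates a G protein of an alpha, a beta and a gamma subunit. Glucagon acts on Gcgr, which works through Gnas (the alpha subunit of Gs) to raise cAMP and so turns on glycogen breakdown and gluconeogenesis. Noradrenaline on Adra1b and vasopressin on Avpr1a act through Gq, phospholipase C and calcium, another classical route to glycogen breakdown in the liver. Adenosine on Adora1 acts through Gi, whose alpha subunits include Gnai2, and lowers cAMP.

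Levels are given as units of the authors' score (991702 to 995314 units in each of the 24 libraries), rescaled between libraries with TMM factors, which use a trimmed mean of log ratios. The RNA was read from its 3′ ends, about once per transcript whatever its length, and the read depth is unknown, so the spread between mice is the only error given. On this scale Gcgr was the most abundant of the 10, with a mean of 153 units over the 24 livers, above 91.3% of all genes. It was followed by Sucnr1 (72.4), Gnas (68.9), Gnai2 (63.6), Avpr1a (43.8), Adra1b (29.6), Ramp2 (13.6), Gng10 (10.3), Adora1 (5.54) and S1pr5 (4.45). The ranges over the 24 livers overlapped between every pair of neighbours in this order, even between Gcgr (lowest 126) and Sucnr1 (highest 131). The lowest gene mean in the table is 3 units, so Adora1 and S1pr5 stand close to the floor of what was listed and change in steps of about 1 unit.

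The tissue matched its label, since 13 of 15 hepatocyte markers were listed and summed to between 168440 and 219453 units per library, while only 1 of 20 lymphocyte and NK cell markers was listed. The first principal component of all genes (31.3% of the variance) separated the 2 times. The Con 6 h liver of mouse m4238 stood apart: it was the highest or the lowest of its group for 56.9% of all genes and for 8 of the 10 genes here, whereas the other libraries ranged from 21.1% to 46.6% of all genes. Its 19 pericentral hepatocyte markers summed to 7063 units, against 11607 to 13054 in the other Con 6 h livers. Its 17 Kupffer cell markers summed to 1841 units, more than in any other liver of its group. The sums of 12 stellate cell and fibroblast markers (890 units) and of 25 endothelial markers (690 units) in m4238 were also the highest of its group. Pancreas acinar markers were high in 1 MR 3 h liver (1916 units, m4223) and adrenal markers in 1 MR 6 h liver (508 units, m4214). Many results that rest on Con at 6 h are given with and without m4238. Those of single genes in the lists, and some of the 10 genes, are given only with it.

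The promoters of the 4 receptors that rose at 6 h on MR are shown with that of Gcgr, whose time effects did not pass, because the first 3 of them varied together across the livers. Each is 250 bases before to 50 after a RefSeq transcript start on GRCm38.p6, written 5′ to 3′ along the gene's strand. The windows are chr11:43901188-43901487 (minus strand, the upstream start of Adra1b), chr10:122448249-122448548 (plus strand, Avpr1a), chr3:60081619-60081918 (plus strand, Sucnr1), chr1:134235408-134235707 (minus strand, the upstream start of Adora1) and chr11:120530477-120530776 (plus strand, Gcgr). Capitals mark matches to 5 motifs searched on both strands: the cAMP response element TGACGTCA, the E-box CACGTG, the GC box GGGCGG, the TATA box TATAAA and CCAAT.
Adra1b: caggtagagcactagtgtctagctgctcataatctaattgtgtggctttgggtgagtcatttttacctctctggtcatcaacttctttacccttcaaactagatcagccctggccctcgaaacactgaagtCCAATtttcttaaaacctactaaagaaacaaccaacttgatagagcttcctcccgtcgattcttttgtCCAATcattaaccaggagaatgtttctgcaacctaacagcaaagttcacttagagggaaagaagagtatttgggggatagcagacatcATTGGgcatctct
Avpr1a: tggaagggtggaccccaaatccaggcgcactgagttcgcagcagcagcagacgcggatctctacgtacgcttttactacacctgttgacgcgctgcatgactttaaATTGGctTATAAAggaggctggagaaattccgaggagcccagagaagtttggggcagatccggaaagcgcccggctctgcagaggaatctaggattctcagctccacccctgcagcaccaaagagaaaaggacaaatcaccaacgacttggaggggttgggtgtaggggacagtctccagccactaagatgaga
Sucnr1: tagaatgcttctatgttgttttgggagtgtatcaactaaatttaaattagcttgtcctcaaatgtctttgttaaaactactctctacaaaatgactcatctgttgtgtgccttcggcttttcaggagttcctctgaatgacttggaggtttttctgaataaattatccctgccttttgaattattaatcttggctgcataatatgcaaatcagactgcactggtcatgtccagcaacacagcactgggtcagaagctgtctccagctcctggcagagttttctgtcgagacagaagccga
Adora1: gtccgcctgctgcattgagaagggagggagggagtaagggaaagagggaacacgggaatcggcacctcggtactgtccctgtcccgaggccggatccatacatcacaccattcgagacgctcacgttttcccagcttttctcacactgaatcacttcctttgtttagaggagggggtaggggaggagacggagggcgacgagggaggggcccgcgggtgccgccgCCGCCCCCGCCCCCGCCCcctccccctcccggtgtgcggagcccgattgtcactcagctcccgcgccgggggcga
Gcgr: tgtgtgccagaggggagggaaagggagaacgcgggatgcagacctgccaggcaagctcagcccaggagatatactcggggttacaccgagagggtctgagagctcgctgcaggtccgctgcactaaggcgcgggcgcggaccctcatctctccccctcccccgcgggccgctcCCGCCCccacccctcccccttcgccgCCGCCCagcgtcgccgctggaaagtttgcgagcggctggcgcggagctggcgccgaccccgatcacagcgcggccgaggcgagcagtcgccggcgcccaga

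The 5 windows differ in make-up. The transcripts of the first 3 varied together over all livers but less so within groups. There, without m4238, r was 0.46 for Adra1b and Avpr1a, 0.27 for Adra1b and Sucnr1, and 0.10 for Avpr1a and Sucnr1. Adra1b's upstream window held 3 CCAAT matches, with first bases at −119, −51 and +38 from the start, and no GC box. Its other start, at chr11:43836440-43836739, held 2 GC boxes and no CCAAT. Avpr1a held 1 CCAAT match at −144 and 1 TATAAA at −137, Sucnr1 held none of the 5 motifs, Adora1 held 3 GC boxes in a row at −25, −19 and −13, and Gcgr held 2 GC boxes at −77 and −51. The other start of Adora1, at chr1:134234807-134235106, held none of the 5 motifs. No matches overlapped in these windows. GC content was 42.3% for Adra1b upstream, 54.0% for Avpr1a, 40.7% for Sucnr1, 66.0% for Adora1 and 71.7% for Gcgr, beside a median of 52.7% over all windows. Among 32851 mouse promoter windows of the same 300 bases, 37.4% hold CCAAT, 35.7% the GC box, 13.6% TATAAA, 7.15% the E-box and 1.79% the cAMP response element, and the last 2 were in none of the 13 windows of the 8 genes with an entry. These motifs were chosen after the values were seen, and a match is a description of the letters, not of a bound site.

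Adra1b, the alpha-1B adrenergic receptor through which noradrenaline raises hepatocyte calcium, lies on chromosome 11 of GRCm38 from 43774605 to 43901250. At 6 h on MR the 6 livers ran from 35.4 to 44.0 units with a median of 39.1, against 14.7 to 23.5 with a median of 21.2 at 3 h on MR. Every 6 h liver was above every 3 h liver. The means were 39.3 ± 3.29 and 20.6 ± 3.06 units (SD, n = 6 each), a ratio of 1.91, and the log2 fold change of the value plus 1 was 0.91 (95% interval 0.71 to 1.11), with a limma adjusted p over all genes of 3.72e-07 and an exact two-sided permutation p of 0.00216, the smallest that the 924 divisions of 12 mice can give. On Con the 6 h livers ran from 24.6 to 37.6 units with a median of 35.4, against 22.5 to 27.7 with a median of 24.3 at 3 h. Here 5 of 6 livers at 6 h were above all livers at 3 h, the exception being m4238 at 24.6 units. The log2 fold change on Con was 0.43 (0.23 to 0.64; limma adjusted p 0.00306; exact permutation p 0.00649), and without m4238 it was 0.52 with a limma adjusted p of 0.000147. The choice of genes had the 3 h livers in view. These p-values, and those of the time tests of the other genes below, are not free of that choice.

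Avpr1a, the vasopressin V1a receptor, lies on chromosome 10 from 122448499 to 122453453 and moved in the same way. At 6 h on MR it ran from 50.6 to 65.5 units with a median of 58.8, against 22.5 to 40.3 with a median of 30.7 at 3 h on MR, so that the groups did not overlap. The log2 fold change was 0.88 (0.62 to 1.14), a ratio of means of 1.85, with a limma adjusted p of 1.24e-05 and the smallest exact permutation p of 0.00216. At 6 h on Con it ran from 32.9 to 59.9 units with a median of 52.4, against 31.1 to 38.4 with a median of 35.9 at 3 h on Con. Again m4238, at 32.9 units, was the 1 liver of 6 within the 3 h range. The log2 fold change on Con was 0.47 (0.21 to 0.73; limma adjusted p 0.00988; exact permutation p 0.0108), and 0.58 without m4238 (adjusted p 0.000496).

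Sucnr1, the receptor for succinate, lies on chromosome 3 from 60081869 to 60087566 and on Con varied more from mouse to mouse than the 2 receptors above. At 6 h on MR it ran from 75.6 to 106 units with a median of 84.8, against 34.3 to 57.2 with a median of 43.4 at 3 h on MR, with no overlap. The log2 fold change was 0.99 (0.45 to 1.53), a ratio of 1.99, with a limma adjusted p of 0.00634 and an exact permutation p of 0.00216. On Con at 6 h it ran from 30.1 to 131 units with a median of 114, against 46.5 to 99.8 with a median of 57.1 at 3 h on Con. The lowest of these 12 Con livers was m4238, at 6 h. With it the log2 fold change on Con was 0.52 (−0.02 to 1.05) and did not pass (limma adjusted p 0.171; exact permutation p 0.175), and without it the value was 0.81 (0.45 to 1.17) with an adjusted p of 0.00183, so that mouse alone decides the call.

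Adora1, the adenosine A1 receptor, lies on chromosome 1 from 134199215 to 134235457 and is a transcript of low level in these livers. At 6 h on MR it ran from 5.84 to 10.6 units with a median of 7.12, against 1.95 to 5.11 with a median of 3.03 at 3 h on MR, with no overlap. Its log2 fold change of 1.03 (0.65 to 1.40; limma adjusted p 0.000146; exact permutation p 0.00216) understates the change of a low gene because 1 unit is added, and the ratio of means was 2.34. On Con it ran from 5.03 to 11.9 units with a median of 5.65 at 6 h, against 3.89 to 6.14 with a median of 4.02 at 3 h. Here m4238 was the highest liver, at 11.9 units, with the next at 6.16. The log2 fold change on Con, 0.42 (0.05 to 0.80), did not pass over all genes (limma adjusted p 0.101; exact permutation p 0.0173) and was 0.26 without m4238 (adjusted p 0.245).

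**Figure D1:**
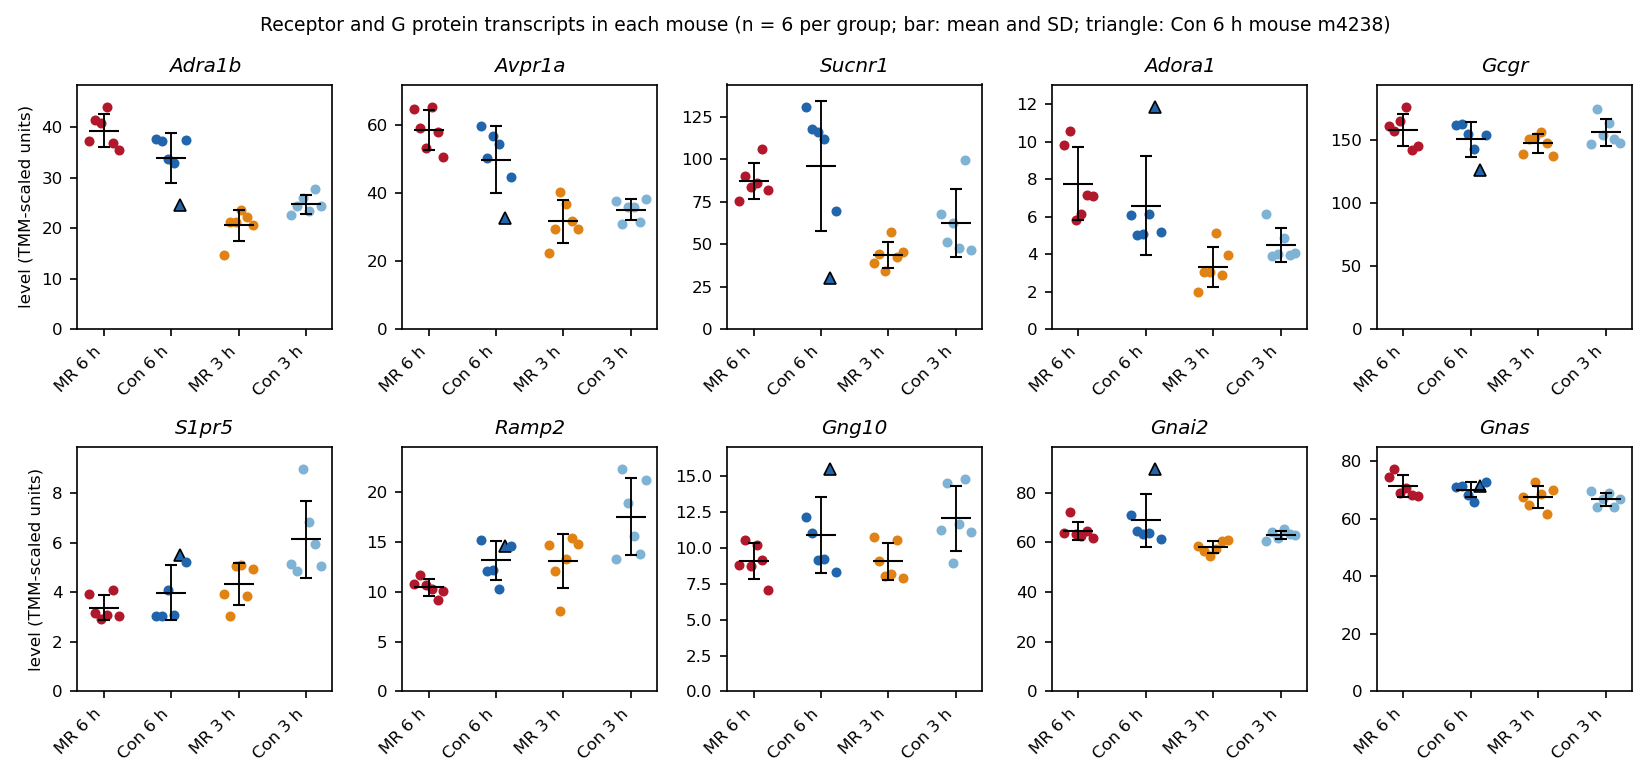
Each panel plots the level of 1 transcript in TMM-scaled units (vertical axis, from 0) in every mouse of the 4 groups, with bars for the mean and SD (n = 6) and a triangle for Con 6 h mouse m4238. For Adra1b, Avpr1a, Sucnr1 and Adora1 the MR 6 h points all sit above the MR 3 h points, while Gcgr and Gnas are nearly level across the groups.

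Gcgr, the glucagon receptor, is on chromosome 11 from 120529185 to 120538989, and no time effect of it passed the test. On MR it ran from 142 to 176 units with a median of 159 at 6 h, against 137 to 156 with a median of 149 at 3 h. On Con it ran from 126 to 162 units with a median of 154 at 6 h, against 146 to 174 with a median of 152 at 3 h. The log2 fold change was 0.10 (−0.04 to 0.23; limma adjusted p 0.297) on MR and −0.06 (−0.19 to 0.08; adjusted p 0.588) on Con, or −0.01 on Con without m4238.

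S1pr5, a receptor for sphingosine-1-phosphate, lies on chromosome 9 from 21242917 to 21248443 and was the 1 transcript of the 10 to pass the test for a fall. That fall, on Con, starts from 3 h livers that were in view when the genes were chosen (means 6.12 units on Con and 4.31 on MR). On Con it ran from 3.02 to 5.48 units with a median of 3.58 at 6 h, against 4.86 to 8.96 with a median of 5.52 at 3 h. In 4 of 6 livers at 6 h it was below all livers at 3 h, and the log2 fold change was −0.52 (−0.82 to −0.22; limma adjusted p 0.0126; exact permutation p 0.0216), or −0.60 without m4238 (adjusted p 0.00344). On MR it ran from 2.92 to 4.08 units with a median of 3.12 at 6 h, against 3.04 to 5.11 with a median of 4.42 at 3 h, and the log2 fold change of −0.27 did not pass (limma adjusted p 0.166; exact permutation p 0.0714).

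Ramp2 encodes a single-pass protein that brings the calcitonin receptor-like receptor to the cell surface as a receptor for adrenomedullin, and is best known from endothelium. It lies on chromosome 11 from 101246334 to 101248250, where the GENCODE model overlaps Vps25 on the same strand, so its reads may be shared. On MR it ran from 9.19 to 11.6 units with a median of 10.5 at 6 h, against 8.07 to 15.4 with a median of 13.97 at 3 h. On Con it ran from 10.3 to 15.2 units with a median of 13.4 at 6 h, against 13.3 to 22.3 with a median of 17.2 at 3 h.
The log2 fold changes, −0.27 on MR (limma adjusted p 0.139) and −0.37 on Con (adjusted p 0.0524, exact permutation p 0.0390), did not pass. On Con the value stood close to the threshold and passed when any 1 of 6 mice was left out (m4209 of MR 3 h, m4205 or m4220 of Con 3 h, m4221, m4238 or m4241 of Con 6 h), with log2 fold changes from −0.44 to −0.37 and adjusted p from 0.0207 to 0.0490. On MR it passed without the MR 3 h mouse m4209 (−0.39, adjusted p 0.0148). The 25 endothelial markers summed to 519 to 643 units at 6 h and 517 to 590 at 3 h on MR, and to 567 to 690 at 6 h and 533 to 631 at 3 h on Con. Their part in the levels of Ramp2 and S1pr5 was not tested, and in bulk liver fewer cells of a type and less RNA per cell cannot be told apart.

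Of the G protein subunits, Gnai2, an alpha subunit of Gi (chromosome 9, 107614125 to 107635391), ran from 61.7 to 72.0 units with a median of 63.5 at 6 h on MR, against 54.5 to 61.1 with a median of 57.9 at 3 h on MR. The groups did not overlap and the exact permutation p was 0.00216, but the shift was small, with a log2 fold change of 0.15 (0.01 to 0.29), and it did not pass over all genes (limma adjusted p 0.101). Without m4238, which is in neither group but enters the spread that all 4 groups share in the fit, the same contrast had an adjusted p of 0.0237, and it passed as well when only its own 12 libraries were fitted (0.0249) and without the 3 libraries m4238, m4223 and m4214 (0.0283). On Con the Gnai2 values overlapped, 61.4 to 89.5 units at 6 h against 60.4 to 65.2 at 3 h, with the 89.5 in m4238 (log2 fold change 0.12, limma adjusted p 0.228, and 0.04 without m4238).

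Gnas, the alpha subunit of Gs (chromosome 2, 174284320 to 174346744), was the steadiest of the 10, with 61.6 units in the lowest and 77.3 in the highest of the 24 livers. Its means were 71.3 ± 3.82 units at 6 h and 67.5 ± 3.88 at 3 h on MR, and 70.1 ± 2.62 at 6 h and 66.8 ± 2.33 at 3 h on Con (SD, n = 6 each), with log2 fold changes of 0.08 and 0.07 that did not pass (limma adjusted p 0.215 on MR and 0.301 on Con). Gng10, a gamma subunit (chromosome 4, 59035156 to 59041899), averaged 9.11 ± 1.25 units at 6 h and 9.09 ± 1.29 at 3 h on MR, and 10.9 ± 2.66 at 6 h and 12.1 ± 2.24 at 3 h on Con. Neither time effect of Gng10 passed, at 0.00 (−0.26 to 0.27) on MR and −0.14 (−0.41 to 0.12) on Con, or −0.24 (−0.49 to 0.00) on Con without m4238. GENCODE models overlap each of these 3 subunit genes on the same strand (Gm19721, Gm20503 and small RNA models), so some of their reads are uncertain too. Models on the opposite strand overlap Adora1 (Mybph), Avpr1a (Gm48877), Gcgr (Gm11789), S1pr5 (Gm48303) and Gnas (Nespas and Gm20721), and whether the counting used strand is not known here.

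Counted together, 4 of the 10 transcripts (Adora1, Adra1b, Avpr1a and Sucnr1) rose at 6 h against 3 h on MR and 0 fell, beside 13.9% of all 9049 genes called higher and 14.2% called lower in that comparison. On MR every 6 h liver was above every 3 h liver for 5 of the 10 (those 4 and Gnai2) and below for 0, beside 7.93% and 7.59% of all genes. On Con 2 rose (Adra1b and Avpr1a) and 1 fell (S1pr5), beside 9.23% and 10.4% of all genes, and for none were the 6 Con livers of 6 h all above or all below those of 3 h, beside 2.87% and 3.22% of all genes. Without m4238 those counts on Con were 3 higher (with Sucnr1) and 2 lower (with Ramp2), beside 11.3% and 11.8% of all genes. The median log2 fold change of the 10 was 0.12 on MR and 0.09 on Con, beside −0.01 over all genes in each. The choice of genes had the 3 h livers of both diets in view, and these livers are 1 side of each time comparison. A gene chosen for a low MR value at 3 h enters the MR time comparison with that low value. Likewise, a gene chosen for a high Con value at 3 h enters the Con time comparison with that high value.

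Between the diets at 6 h the livers overlapped for each of these 4 receptors. Adra1b averaged 39.3 ± 3.29 units on MR and 33.9 ± 4.98 on Con (SD, n = 6 each), with 3 of 6 MR livers above all Con livers and a log2 difference of 0.22. Avpr1a averaged 58.6 ± 5.94 units on MR and 49.9 ± 9.88 on Con, a log2 difference of 0.25. Both differences rest partly on m4238 and were 0.13 and 0.14 without it.
Adora1 averaged 7.77 ± 1.97 units on MR and 6.58 ± 2.64 on Con, with a log2 difference of 0.24 (0.40 without m4238). Sucnr1 averaged 87.2 ± 10.5 units on MR and 96.1 ± 38.4 on Con, with a log2 difference of 0.00, and −0.30 without m4238. The other 6 had log2 differences between −0.30 (Ramp2) and 0.07 (Gcgr), and between −0.27 (Ramp2) and 0.03 (Gnas) without m4238. For none were the MR livers all above or all below the Con livers, beside 1.04% and 0.564% of all genes, and none of the 10 is among the 0.74% of all genes called between the diets at 6 h.

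At 3 h, the comparison in view when the genes were chosen, 9 of the 10 had a lower mean on MR and Gnas was level (log2 difference 0.01). The median difference of the 10 was −0.31, beside 0.00 over all genes, of which 49.9% were negative. Sucnr1 averaged 43.8 ± 7.71 units on MR and 62.6 ± 20.05 on Con (log2 difference −0.47), and S1pr5 4.31 ± 0.84 on MR and 6.12 ± 1.57 on Con (−0.41). Ramp2 averaged 13.1 ± 2.71 units on MR and 17.5 ± 3.85 on Con (−0.40), and Gng10 9.09 ± 1.29 on MR and 12.1 ± 2.24 on Con (−0.36).
For every one of the 10 the MR and Con livers overlapped at 3 h, beside 0.0995% of all genes with every MR liver above and 0.0995% with every MR liver below. For Adra1b and Sucnr1 5 of 6 MR livers were below all Con livers, and for Adora1 and Gnai2 4 of 6 were. Gcgr differed by −0.08. No gene of the table was called at 3 h (0.0% of 9049 by limma, smallest adjusted p 0.553), while 603 genes had an unadjusted p under 0.05.

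The difference of the 2 diet effects, 6 h minus 3 h, was positive for all 10, with a median of 0.20 beside 0.00 over all genes. It was 0.60 for Adora1, 0.48 for Adra1b, 0.47 for Sucnr1 and 0.41 for Avpr1a, and between 0.01 and 0.25 for the other 6. Without m4238 the values were 0.76 for Adora1, 0.38 for Adra1b, 0.16 for Sucnr1 and 0.29 for Avpr1a. The difference is made in part from the 3 h comparison in view when the genes were picked, so its sign is not independent of the choice. None of the 10 is among the 0.0663% of all genes called for this difference.

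**Figure D2:**
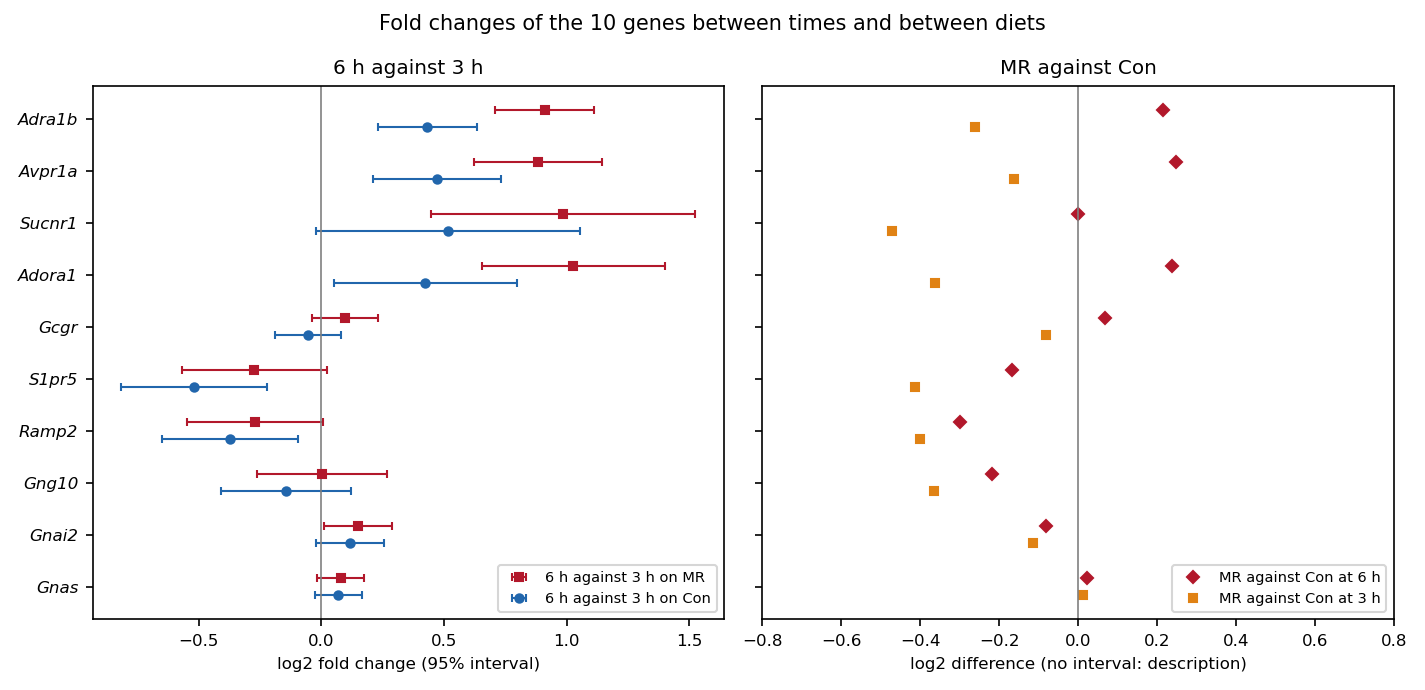
The left panel plots log2 fold changes of the 10 transcripts at 6 h against 3 h on MR (squares) and on Con (circles), and the right panel those of MR against Con at 6 h (diamonds) and at 3 h (squares). Bars on the left are 95% intervals, and the diet differences on the right are descriptions with none. On the left Adra1b and Avpr1a lie right of 0 on both diets and S1pr5 left of 0 on Con, and on the right 9 of the 10 squares of 3 h lie left of 0.

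Across the 24 livers Adra1b and Avpr1a varied together (Pearson r 0.92 of the log2 values), and so did Adra1b and Sucnr1 (0.79) and Avpr1a and Sucnr1 (0.75). After each group's mean was taken away the r values were 0.65, 0.60 and 0.51 for these pairs. Those within-group values lean on m4238, the lowest Con 6 h liver for all 3 genes, and without it they were 0.46, 0.27 and 0.10, while over all livers they were 0.92, 0.81 and 0.75 without it. Adora1 and Adra1b had an r of 0.67 over all livers and −0.20 within groups, or 0.25 within groups without m4238. Adora1 and Gnai2 had 0.62 within groups and 0.27 there without m4238. Gnai2 and Gng10 had an r of 0.59 over all livers and 0.42 without m4238, which was the highest liver of its group for both, and 0.70 within groups and 0.56 there without it. These are descriptions over livers that share groups, scaling and m4238.

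**Figure D3:**
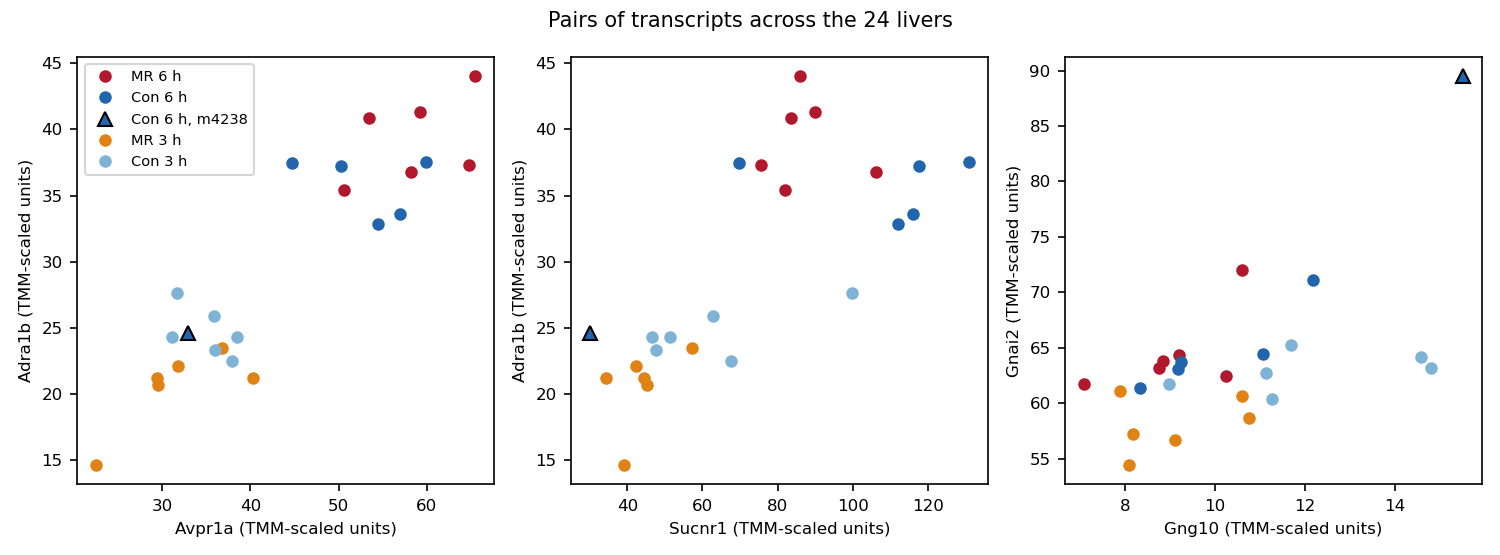
Each point is 1 of the 24 livers, coloured by group, with TMM-scaled units of 1 transcript on each axis (axes do not start at 0) and a triangle for m4238. Adra1b rises with Avpr1a (r 0.92) and with Sucnr1 (0.79), and m4238 falls among the 3 h livers in the Adra1b and Avpr1a panel and at the upper right corner in the Gng10 and Gnai2 panel.

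The genes of the table most like each receptor over the 24 livers were Scap (0.95), Galt (0.94) and Ptprf (0.94) for Adra1b, and Hsd3b7 (0.95), Fermt2 (0.94) and Mmab (0.92) for Avpr1a. For Sucnr1 they were Aqp8 (0.91), Tlcd2 (0.90) and Sema4a (0.89), for Adora1 Sorbs2 (0.88), Apol9a (0.86) and Sntb1 (0.85), for Gcgr Gpr137 (0.79), Naprt (0.78) and Zfp653 (0.78), and for S1pr5 Slc35b4 (0.82), Lrrc59 (0.81) and Gmppb (0.80). For Ramp2 they were Psmd9 (0.82), the clock output gene Dbp (0.82) and 1110065P20Rik (0.79). Among the G proteins, Gng10 was most like the ribosomal protein genes Rpl19 (0.85) and Rps3 (0.83) and Prdx4 (0.83), Gnai2 like Sod3 (0.90), Tagln2 (0.89) and Rhoc (0.88), and Gnas like Sfr1 (0.78), Gaa (0.78) and Letm1 (0.78). The Gnai2 values lean on m4238, without which they were 0.76, 0.77 and 0.67. Those of Gcgr were 0.74, 0.71 and 0.71 without it. All these r values include differences between the groups. With each group's mean taken away they ran from 0.57 (S1pr5 and Gmppb) to 0.89 (Avpr1a and Hsd3b7). For Adora1 they were then 0.66, 0.61 and 0.62.

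Some other receptors of the liver also passed the test for time. Of 123 other G protein-coupled receptors sought, 31 were listed, and 6 (19.4%) rose and 3 (9.68%) fell at 6 h on MR, beside 13.9% and 14.2% of all genes. On Con 2 (6.45%) rose and 3 (9.68%) fell, beside 9.23% and 10.4% of all genes, so these shares stand near those of all genes. Agtr1a, the angiotensin II receptor that also couples to calcium, was at 52.1 ± 4.94 units at 6 h and 35.5 ± 4.56 at 3 h on MR (log2 fold change 0.55, limma adjusted p 3.07e-05), and at 52.9 ± 4.61 units at 6 h and 34.2 ± 3.82 at 3 h on Con (0.62, adjusted p 2.02e-05). P2ry2, a receptor for ATP and UTP, fell on both diets, by 0.74 on MR and 0.66 on Con on the log2 scale. Pth1r (0.65) and the nucleotide receptor P2ry4 (0.56) rose on MR. Without m4238 there were 6 rises and 5 falls on MR. On Con there were then 3 rises and 1 fall, beside 11.3% and 11.8% of all genes.

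Of 12 other G protein subunits listed, 4 (33.3%) rose and 0 fell on MR, beside the 13.9% and 14.2% of all genes, namely the beta subunits Gnb2 (log2 fold change 0.37) and Gnb1 (0.16), the Gi alpha subunit Gnai3 (0.20) and the gamma subunit Gng12 (0.17). On Con Gng12 and Gnb1 rose (16.7%), and Gna11, an alpha subunit of Gq, and Gng5 fell (16.7%), by 0.26 and 0.23 on the log2 scale, beside the 9.23% and 10.4% of all genes. Of 14 accessory and trafficking proteins 2 (14.3%) rose and 1 (7.14%) fell on MR, and 1 rose and 1 fell on Con (7.14% each), with Crcp lower on both diets (−0.54 on MR, −0.32 on Con). Of 16 genes listed as regulators 2 (12.5%) rose and 3 (18.8%) fell on MR. Those falls were Gnl3 (−0.97), the arrestin-domain protein Arrdc3 (−0.80) and Gnl2 (−0.26). On Con 1 (6.25%) rose and 2 (12.5%) fell, the falls being Gnl3 (−0.64) and Ric8a (−0.27). Nothing here shows that Gnl2 or Gnl3 acts on these receptors or their G proteins. The shares of these last lists stand near those of all genes. Without m4238 no accessory protein rose on Con, and 2 regulators did.

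Below the receptors, 7 genes of the cAMP arm (29.2%) rose and 3 (12.5%) fell of 24 listed on MR, beside the 13.9% and 14.2% of all genes, and 3 (12.5%) rose and 2 (8.33%) fell on Con, beside the 9.23% and 10.4%. Prkaca, the catalytic subunit of protein kinase A, rose on both diets (log2 fold change 0.41 on MR and 0.37 on Con), as did Pde4b, which breaks down cAMP (0.87 and 0.79). Rapgef4, a cAMP-activated exchange factor, fell by 0.71 on MR.
Of 30 genes of the phospholipase C and calcium arm 5 rose and 5 fell on MR (16.7% each), and 2 (6.67%) rose and 4 (13.3%) fell on Con, which became 4 and 3 without m4238. These shares stand near those of all genes. The protein kinase C isoform Prkce rose by 0.63 on MR and 0.23 on Con. Atp2a2, the calcium pump of the endoplasmic reticulum, fell by 0.49 on MR and 0.67 on Con, and Itpr1, a calcium release channel, fell by 0.48 on Con. For the supply of ligands, 4 of 25 genes (16%) rose and 1 (4%) fell on MR, and 3 (12%) rose and 1 (4%) fell on Con, with Sgpl1, the lyase of sphingosine-1-phosphate, at 0.63 and 0.45 on the log2 scale.

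Genes listed as known to respond to glucagon and cAMP had the highest share of rises among these lists. The lists were written with earlier results of these data known, so their shares are descriptions only. On MR 11 of 24 (45.8%) rose and 2 (8.33%) fell at 6 h, beside 13.9% and 14.2% of all genes, with a median log2 fold change of 0.44 beside −0.01 over all genes, and on Con 7 (29.2%) rose and 0 fell, beside 9.23% and 10.4% of all genes, with a median of 0.13 (6 and 1 without m4238). Igfbp1, an insulin-like growth factor binding protein, was at 66.8 ± 28.7 units at 6 h and 9.24 ± 6.40 at 3 h on MR (2.84, limma adjusted p 9.02e-05), and at 38.2 ± 13.5 units at 6 h and 10.1 ± 6.02 at 3 h on Con (1.89, adjusted p 0.00652). Pdk4, which holds back glucose oxidation, changed by 1.73 on MR and 1.28 on Con, and Ppp1r3c, a glycogen-targeting phosphatase subunit, by 1.63 and 1.11. Cpt1a (−0.55) and the clock gene Per1 (−0.56) fell on MR. Many of these genes also respond to insulin, feeding, stress or the clock.

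Between the diets these lists held few calls. Of all genes 0.74% were called in either direction at 6 h and 0.0% at 3 h. At 6 h the responsive genes had 2 higher and 0 lower of 24, Slc38a2, an amino acid transporter, at 72.7 ± 12.8 units on MR and 39.0 ± 4.16 on Con (log2 difference 0.87, limma adjusted p 9.11e-05), and Ddit4, a stress-induced inhibitor of mTORC1, at 51.6 ± 20.1 units on MR and 18.0 ± 4.32 on Con (1.38, adjusted p 0.00902). Both are also known to be induced when amino acids are scarce. The other 7 lists had 0 calls in either direction at 6 h, which is near the share of all genes. All 8 had 0 at 3 h, where limma called no gene of the table.

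**Figure D4:**
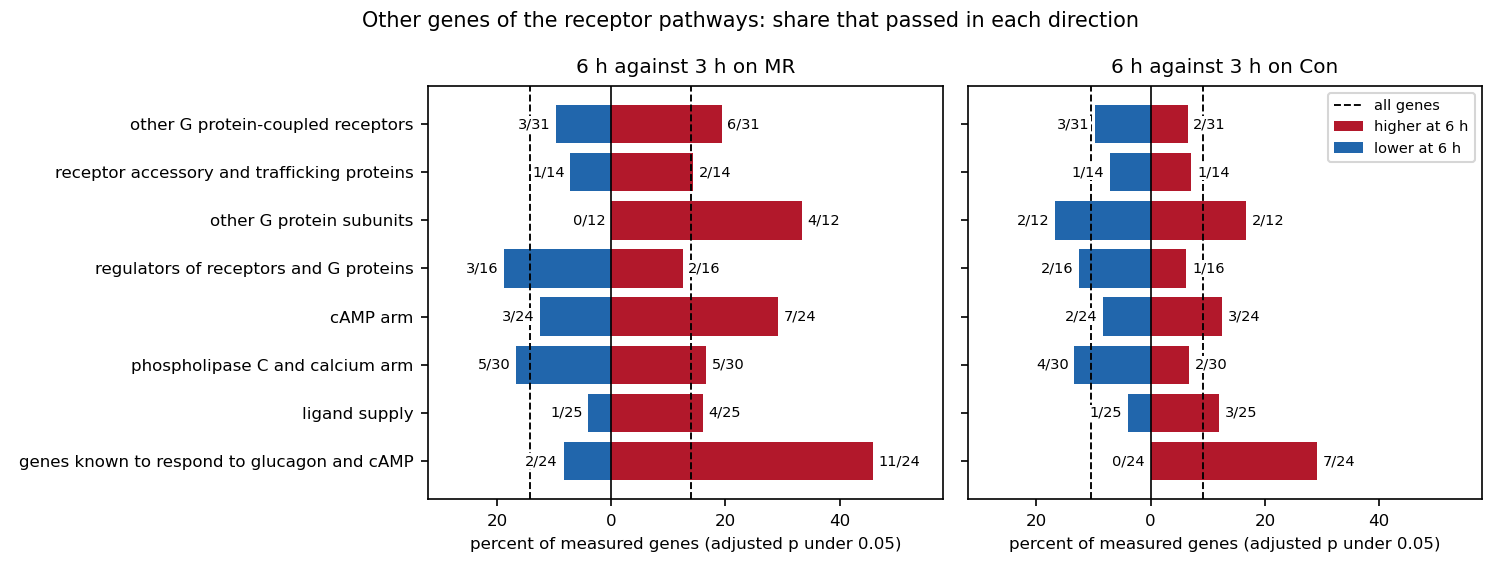
Bars give the percent of each list's measured genes that passed an adjusted p of 0.05 at 6 h against 3 h, higher to the right and lower to the left of 0, on MR (left panel) and on Con (right panel), with the counts beside them and dashed lines at the shares of all genes (13.9% and 14.2% on MR, 9.23% and 10.4% on Con). The genes known to respond to glucagon and cAMP have the longest bars to the right, 11 of 24 on MR and 7 of 24 on Con. The lists were written with earlier results of these data known.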

How the data were processed

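Liver RNA of 24 mice was made into Lexogen QuantSeq 3′ libraries and read as 50 bp forward reads, and the authors used the Lexogen Quantseq pipeline V1.8.8. Their processing notes list the build GRCm38 and DESeq2 1.22.2. The strand setting of counting is not given in the sources here. The authors deposited 2 tables of 9049 genes. The first, named raw counts, holds a score scaled to nearly 1 total per library and rounded to whole numbers, and the second deposited table is the same score divided by 1 size factor per library, so neither was tested with a count model, and depth is unknown. Groups came from the labels, and columns were matched by mouse number.

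The scores were scaled by TMM factors (30% of log ratios and 5% of means trimmed on each side, the published formula computed in R) and log2(value + 1) was fitted with limma 3.58.1 (R 4.3.3) as 4 group means over all 24 libraries, with a trended, robust prior. P-values were Benjamini-Hochberg adjusted over all genes (threshold 0.05). Means and SDs are of the scaled score. Time comparisons of single genes also had an exact two-sided permutation test. The method was tested on simulated data with independent normal noise for each gene. They held no library that shifts many genes together, so they do not show how the method deals with one such as m4238. Nothing in the sources used here gives a batch, and separate mice are the replicates. The 10 genes, the pathway lists and the marker lists were chosen with earlier results of these data known. The text names the 10 genes, for each list up to 4 genes per direction and time comparison and up to 2 per diet comparison with the smallest p, and for each of the 10 up to 3 genes with the highest r. Alternatives were no TMM factors, the authors' size factors, pseudocounts of 0.5 and 5, a minimum mean of 10 units, an untrended prior, only the 12 libraries compared, leaving out each mouse, and leaving out 3 libraries (m4238, m4223 and m4214). List counts and within-group r values without m4238 were added after seeing the data. Promoters are from RefSeq (GRCm38.p6), with no entry used for Ramp2 and Gnai2, and overlapping gene models are from GENCODE.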

Additional observations from a re-analysis of the deposited data

Results flagged for a closer look

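In 5 of the 40 sets of 6 mice (12.5%), 1 mouse lay farther from the rest than Dixon's 95% limit for 6 values. Chance gives about 1 in 20 such sets, and 9.24% of the 36196 sets over all genes passed the same limit. Of these 5, 3 were m4238 in the Con 6 h group: Adora1 at 11.9 units (the next mouse at 6.16), Adra1b at 24.6 (the next at 32.9) and Gnai2 at 89.5 (the next at 71.1). The other 2 were Adra1b at 14.7 units in the MR 3 h mouse m4204 (the next at 20.7) and Gnai2 at 72.0 in the MR 6 h mouse m4219 (the next at 64.3).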

How the results depend on the processing

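The 4 rises on MR (Adora1, Adra1b, Avpr1a and Sucnr1) and the 2 on Con (Adra1b and Avpr1a) kept their direction and passed the test under every alternative that tested them (largest adjusted p 0.0279). All these alternatives use 3 h livers that were in view when the genes were chosen. Passing them therefore does not free the rises of that choice. Leaving out 1 mouse at a time gave 4 to 5 rises and 0 to 1 falls among the 10 on MR, and 2 to 3 rises and 1 to 2 falls on Con. Falls on Con numbered 2 with a pseudocount of 5 and without the 3 libraries, where Ramp2 passed, and 0 with a minimum mean of 10 units, which left out S1pr5. Gng10 on MR, at 0.00, was −0.019 with no TMM factors and −0.035 without the 3 libraries, and −0.038 to 0.066 with 1 mouse left out. Over all genes, rises on Con numbered 529 with only the 12 libraries compared (835 in the fit reported). At 6 h between the diets, 55 genes were higher and 12 lower. Those higher numbered 21 without the 3 libraries and 30 to 66 with 1 mouse left out. Those lower numbered 4 with no TMM factors, 7 with a minimum mean of 10 units, 2 with only the 12 libraries, 1 without the 3 libraries and 2 to 18 with 1 mouse left out. The 6 genes higher in the difference of the diet effects numbered 3 with an untrended prior, 2 without the 3 libraries and 3 to 8 with 1 mouse left out. For the other changes the cause was not tested. No paired analysis was possible because each mouse has its own number and no 2 groups share one.

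With 6 mice in a group and no read depth, low transcripts such as Adora1 and S1pr5 rest on steps of about 1 unit. The times differ in feeding and in clock hour together, and on MR also in hours on the restricted diet. Whole liver mixes cell types.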
